A study of Komagataella phaffii with 32 samples.

Results

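The genes described here encode enzymes that build sugar from smaller carbon compounds and enzymes that use or make glycerol. They are PCK1, FBP1 and PYC2 of gluconeogenesis, ICL1 and MLS1 of the glyoxylate cycle, and GPD1, GUT1 and GUT2 of glycerol metabolism. They were chosen by gene name, and all 8 were found among the 4581 genes with an entry in the deposited table of names, of 5040 genes with expression values. Expression was measured by RNA sequencing of poly-A RNA in the yeast Komagataella phaffii, which is also called Pichia pastoris. Each value is an RPKM, the reads of a gene scaled to its length and to the mapped reads of its library.

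The strains were a crz1 mutant (PJA-001, genotype label crz1_559), a rim101 mutant (PJA-007, genotype label rim101_117) and the wild type (WT, X-33), and each mutant was 1 strain derived from X-33. Crz1 is a transcription factor regulated by calcineurin in yeasts, and Rim101 is a transcription factor of the response to ambient pH. All 3 strains were grown at 28 °C in rich YP medium with glycerol at 20 g/L, diluted to an OD600 of 0.2, grown to about 0.6, and resuspended in fresh medium of the same kind with 50 mM TAPS buffer. Cells at 0 min (T0) were sampled just after resuspension at pH 5.5, and cells at 15, 30 and 60 min (T15, T30 and T60) came from medium at pH 8.0. No library represented pH 5.5 at the later times, so pH, time after resuspension and growth cannot be told apart. The crz1 mutant and WT had n = 3 libraries at each time and the rim101 mutant n = 2, which gave 32 libraries in 12 groups. The series' design text names GS115 as the wild type where the sample labels name X-33. The labels do not say whether replicates were separate cultures, so the p-values measure the spread between these libraries, which may be technical. The study set the mutants beside WT to ask what Crz1 and Rim101 contribute to the response to alkaline medium.

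Yeast growing on glycerol phosphorylates it with glycerol kinase and oxidises it to a triose phosphate, which can be burned through lower glycolysis or turned into hexose by gluconeogenesis. Fructose-bisphosphatase is needed for hexose synthesis from glycerol, whereas phosphoenolpyruvate carboxykinase and pyruvate carboxylase join the pathway at oxaloacetate and matter most for growth on smaller carbon sources. Isocitrate lyase and malate synthase form the glyoxylate cycle, a bypass of the decarboxylating steps of the tricarboxylic acid cycle that serves growth on compounds such as acetate or ethanol. In Saccharomyces cerevisiae these gluconeogenic and glyoxylate genes are known for repression by glucose.

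Depth could be read from the spacing of the values in 30 libraries, at 4.95 to 16.5 M reads with a median of 7.70 M, and 837 to 1423 genes per library were listed at exactly 0. In 9 libraries, all at pH 8.0, the median of the tested genes was 46.6 to 56.6 RPKM, against 21.01 to 35.4 RPKM in the other 23. Replicate 1 at T0 also stood apart: in each of the 3 strains it was the highest T0 library for 7 of the 8 genes, all but GPD1, which was so for 23% of all 4226 tested genes. CRZ1 mRNA ranged over 21.6 to 54.6 RPKM in crz1 libraries and 16.6 to 34.3 RPKM in WT libraries, with medians of 31.8 and 25.1 RPKM. RIM101 mRNA had a median of 28.5 RPKM (24.3 to 42.1) in rim101 libraries and 122 RPKM (20.5 to 151) in WT libraries. An mRNA can still be made from a mutated gene, so these levels do not check the genotypes. In bulk RNA, fewer cells that express a gene and less of its mRNA per cell cannot be told apart.

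Over the hour at pH 8.0 the genes showed 4 patterns. FBP1 fell at T15 and T30 and at T60 stood near its T0 level. PCK1 fell at T30 in the 3 strains and at T15 in crz1 and WT, with T60 values between those of T15 and T0 on average. PYC2 was highest at T15, and GPD1 fell and stayed low. GUT1 and GUT2 passed the test at no time, while ICL1 and MLS1 were the lowest of the 8 genes and were often listed at 0 at pH 8.0. All 8 genes passed the filter on low values, a mean of at least 1 RPKM over all libraries. A gene is said to rise or fall where limma's moderated test on log2(RPKM + 1) gave an adjusted p under 0.05 over all tested genes.

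At T15, 1 gene rose and 4 fell in crz1, where 14.6% of all tested genes rose and 8.33% fell. In rim101 1 rose and 2 fell (5.47% and 2.7% of all genes), and in WT 1 rose and 3 fell (13.4% and 5.18%). At T30, 1 rose and 3 fell in crz1 (16.8% and 5.28% of all genes), 1 rose and 5 fell in rim101 (23.5% and 4.64%), and 1 rose and 3 fell in WT (24.1% and 4.07%). At T60, 1 rose and 1 fell in crz1 (12.4% and 5.4% of all genes), 0 rose and 1 fell in rim101 (2.72% and 1.14%), and 1 rose and 2 fell in WT (26.9% and 4.61%). The gene that rose was PYC2 each time. Summed over the 3 times these were 11 calls in crz1, 10 in rim101 and 11 in WT. Without replicate 1 of T0 they were 11, 3 and 8. Without the 9 libraries of higher median they were 11 in crz1 and 9 in WT, and 3 in rim101, where T30 had no library left and the other times had given 4. Over all tested genes the log2 change from T0 had a median above 0 in each comparison, from 0.13 (rim101 at T60) to 0.85 (rim101 at T30), while that of the 8 genes was below 0 in all but rim101 at T60, where it was 0.08. Of all genes called against T0, 63.6% to 85.6% were higher over the 9 comparisons, against 48.8% to 61.4% under median-ratio scaling and 42.5% to 56.3% under quantile normalization. The calls lost under these scalings are named beside GPD1 and PYC2.

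**Figure D1:**
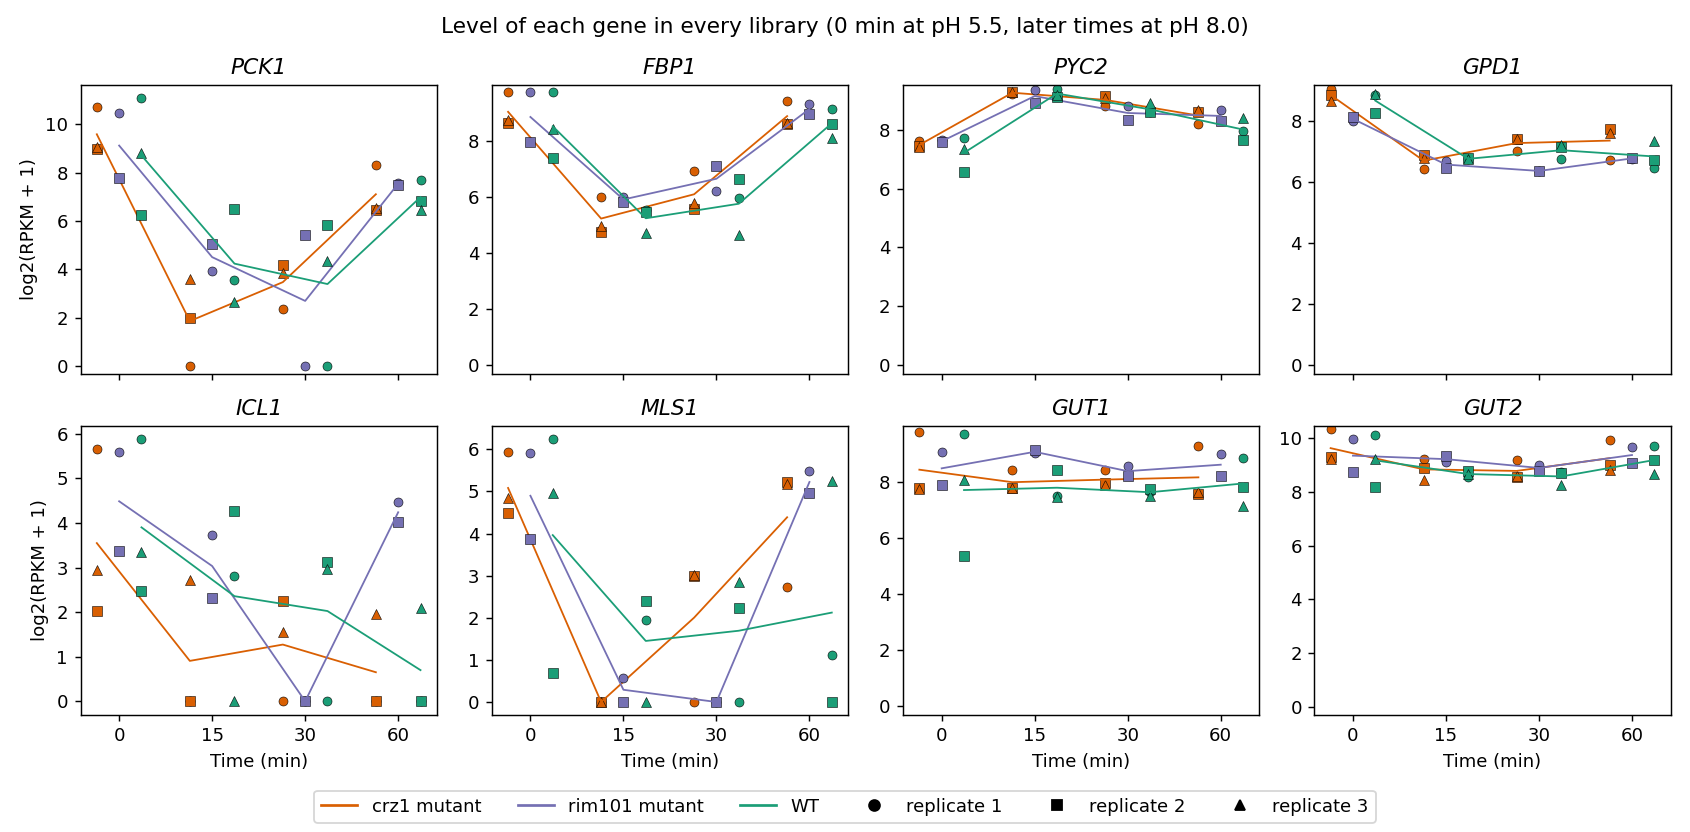
Level of each gene in every library as log2(RPKM + 1) against time (0 min at pH 5.5, later times at pH 8.0, evenly spaced on the axis), with 1 point per library, shapes for replicates and lines through group means. FBP1 and PCK1 dip at 15 and 30 min, PYC2 peaks at 15 min, GPD1 stays low after 0 min, and replicate 1 is the highest point at 0 min for every gene but GPD1.

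FBP1 (PAS_chr3_0868, chromosome 3, 1692961 to 1694022, minus strand) encodes fructose-1,6-bisphosphatase, the gluconeogenic enzyme that removes a phosphate from fructose 1,6-bisphosphate. In crz1 it averaged 555 ± 249, 39.4 ± 20.2, 73.5 ± 40.03 and 487 ± 173 RPKM at T0, T15, T30 and T60 (SD, n = 3). In rim101 the averages were 549 ± 426, 59.1 ± 4.30, 104 ± 44.3 and 564 ± 94.7 RPKM (SD, n = 2), and in WT 452 ± 352, 37.9 ± 11, 61.7 ± 37.6 and 409.8 ± 146 RPKM (SD, n = 3). Every T15 and T30 library was below every T0 library of its strain, and the T60 libraries overlapped those of T0. The T0 libraries were themselves wide apart. They stood at 842, 396 and 426 RPKM in crz1 replicates 1 to 3, at 850.3 and 248 RPKM in rim101 replicates 1 and 2, and at 846, 167 and 343 RPKM in WT replicates 1 to 3. The log2 change at T15 was -3.80 (SE 0.57, adjusted p = 3.01e-05) in crz1, -2.94 (SE 0.69, adjusted p = 0.00804) in rim101 and -3.28 (SE 0.57, adjusted p = 0.000222) in WT. At T30 FBP1 fell too, with log2 changes of -2.94 (adjusted p = 0.000526) in crz1, -2.20 (adjusted p = 0.0273) in rim101 and -2.76 (adjusted p = 0.000954) in WT. The rim101 calls were lost without rim101 T0 replicate 1, with a log2 change of -2.05 at T15 (adjusted p = 0.239) and -1.31 at T30. The T15 call was also lost without rim101 T15 replicate 2, and the T30 call without rim101 T30 replicate 1. With only the compared groups fitted, limma lost both rim101 calls and the WT call at T30 (adjusted p = 0.0778). The rim101 T15 call was also lost with library weights. Both crz1 calls and the WT call at T15 held under every alternative and without each library in turn.

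At T60 the log2 difference of FBP1 from T0 was -0.15 (95% interval -1.33 to 1.02) in crz1, 0.29 (-1.15 to 1.72) in rim101 and 0.11 (-1.07 to 1.28) in WT. These intervals leave room for a change of 2-fold in either direction in every strain, so the return to the T0 level is known only to that precision. Set against T15 instead, a comparison added after the values were seen, FBP1 at T60 was higher in every library of each strain. It rose by 3.65 (SE 0.57, adjusted p = 0.000103) in crz1, 3.23 (SE 0.69, adjusted p = 0.00571) in rim101 and 3.38 (SE 0.57, adjusted p = 0.000238) in WT, all on the log2 scale. In that comparison 10.2% of all tested genes passed in crz1, 5.11% in rim101 and 16.1% in WT. Without the libraries of higher median the T60 over T15 change was no longer called in rim101 or in WT (adjusted p = 0.0688 in WT), and the rim101 call was lost as well without rim101 T15 replicate 2 or T60 replicate 1.

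The mRNA of the enzyme that opposes FBP1 was still low at T60. PFK1, a subunit of phosphofructokinase, which adds the phosphate that FBP1 removes, fell at all 3 times in all 3 strains and at T60 was lower by a log2 change of -2.02 in crz1, -1.43 in rim101 and -1.87 in WT. The ratio of FBP1 to PFK1 mRNA within a library averaged 1.24, 0.377, 0.629 and 4.87 at T0, T15, T30 and T60 in crz1. In rim101 this ratio averaged 1.57, 0.587, 1.00 and 4.96, and in WT 1.27, 0.362, 0.577 and 5.22. All T15 ratios lay below the T0 ratios of the same strain and all T60 ratios lay above them. The T60 ratios ran from 3.16 to 8.10 in crz1, 4.42 to 5.50 in rim101 and 2.71 to 8.13 in WT, against T0 ratios of 0.963 to 1.68 in crz1, 1.09 to 2.04 in rim101 and 0.868 to 1.90 in WT. The highest T60 ratios, 8.10 in crz1 replicate 1 and 8.13 in WT replicate 1, were in libraries of higher median, and the T60 libraries outside that set were still above T0. A ratio within a library does not depend on how libraries were scaled, and it shows unequal change of the 2 mRNAs, not which one moved. With PFK2, another phosphofructokinase gene, in place of PFK1 the ratio at T60 was 3.90 times its T0 mean in crz1, 3.27 times in rim101 and 3.59 times in WT, again with no overlap. These gene pairs were chosen after the values were seen.

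**Figure D2:**
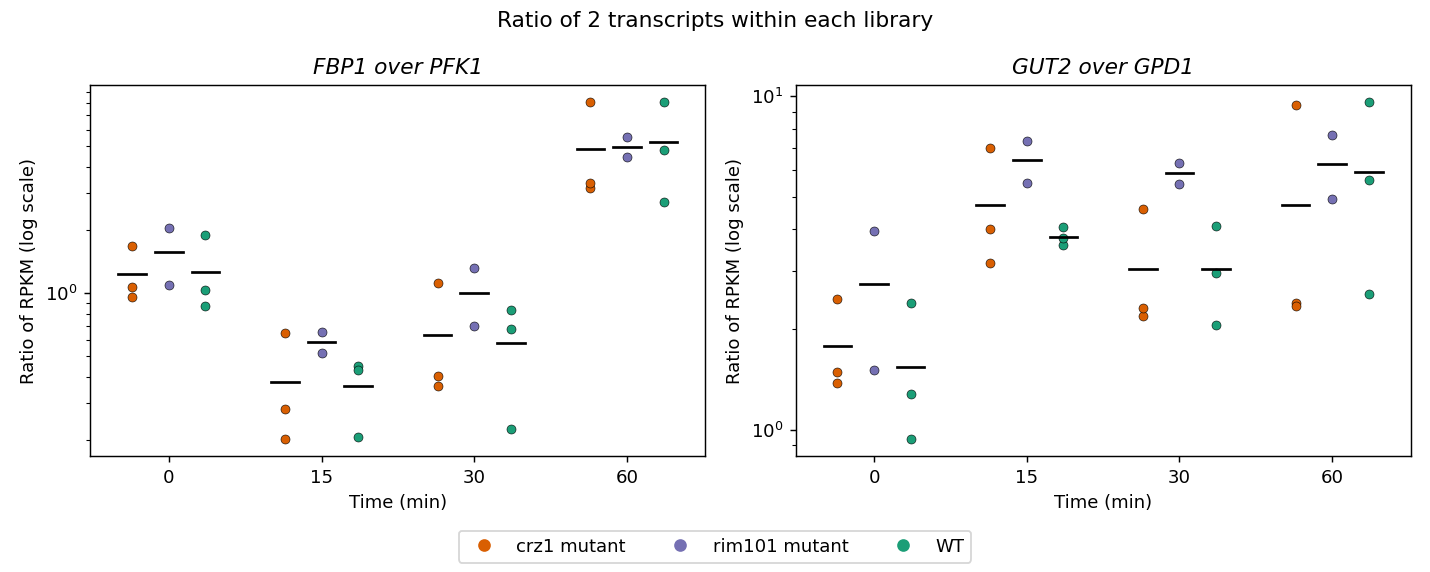
Ratio of RPKM of FBP1 over PFK1 (left) and of GUT2 over GPD1 (right) in each library, on a log scale, by time and strain, with bars at group means. The FBP1 ratio dips at 15 min and lies above all 0 min values at 60 min in the 3 strains. Within each strain, every GUT2 ratio at 15 min is above every one at 0 min.

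PCK1 (PAS_FragB_0061, chromosome 1, 2775424 to 2777097, plus strand) encodes phosphoenolpyruvate carboxykinase, which turns oxaloacetate into phosphoenolpyruvate. By mean RPKM it was the highest of the 8 genes at T0 in each strain, a rank that rests on replicate 1, since GUT2 was above PCK1 in each of the other 5 T0 libraries. Its T0 values were 1644, 504 and 536 RPKM in crz1 replicates 1 to 3, 1397 and 218 RPKM in rim101 replicates 1 and 2, and 2136, 74.9 and 447 RPKM in WT replicates 1 to 3. Replicate 1 thus stood far above its partners in each strain, and the WT libraries spanned the widest range. At T15 PCK1 was at 0, 2.97 and 11.3 RPKM in crz1, at 14.4 and 32.6 RPKM in rim101, and at 10.8, 90.0 and 5.32 RPKM in WT. At T30 the values were 4.22, 17.1 and 13.6 RPKM in crz1, 0 and 41.3 RPKM in rim101, and 0, 56.2 and 19.5 RPKM in WT. Only WT T15 replicate 2, at 90.0 RPKM, reached into the T0 range of its strain. At T60 PCK1 stood at 316, 87.5 and 91.7 RPKM in crz1, at 191 and 179.7 RPKM in rim101, and at 203, 114 and 85.8 RPKM in WT, below all T0 libraries in both mutants and overlapping them in WT.

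PCK1 fell at T15 in crz1 by a log2 change of -7.71 (SE 1.43, adjusted p = 0.000312) and in WT by -4.46 (SE 1.43, adjusted p = 0.0300), while the rim101 value of -4.60 had an adjusted p of 0.110. At T30 it fell in all 3 strains, by -6.10 (adjusted p = 0.00301) in crz1, -6.41 (adjusted p = 0.0138) in rim101 and -5.31 (adjusted p = 0.00783) in WT. At T60 no call was made, with log2 changes of -2.47 (95% interval -5.42 to 0.47) in crz1, -1.57 (-5.18 to 2.04) in rim101 and -1.72 (-4.67 to 1.23) in WT. The authors' deposited table gave PCK1 in WT at T60 a log2 fold change of -3.38 with an FDR of 0.00228. The crz1 falls held without each library in turn. Of the WT falls, that at T15 was lost without WT T0 replicate 1 (-3.29, adjusted p = 0.176) and also without T0 replicate 3, T15 replicate 1 or T15 replicate 3, and that at T30 without T0 replicate 1 or T30 replicate 1. The rim101 fall at T30 was lost without T0 replicate 1 (-5.07, adjusted p = 0.143) or T30 replicate 1 (-3.71, adjusted p = 0.207). PCK1 at T60 was higher than at T15 in crz1 by 5.23 (SE 1.43, adjusted p = 0.0186), against 3.03 (adjusted p = 0.360) in rim101 and 2.74 (adjusted p = 0.177) in WT. That crz1 call was lost without the libraries of higher median, and without T15 replicate 1, T15 replicate 2 or T60 replicate 1. All 3 libraries in which PCK1 was listed at 0 were among the 9 of higher median, and the part of that library difference in these falls was tested only by leaving them out. Without the 9 the WT fall at T30 was lost, the WT fall at T15 and both crz1 falls held, and rim101 at T30 could not be fitted. With only the compared groups fitted, both WT falls and the rim101 fall were lost. The WT fall at T15 was also lost at a pseudocount of 0.25.

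PYC2 (PAS_chr2-2_0024, chromosome 2, 2344058 to 2347582, minus strand) encodes pyruvate carboxylase, which makes the oxaloacetate that PCK1 consumes and also refills the tricarboxylic acid cycle. It moved opposite to PCK1 and FBP1. In crz1 it averaged 178 ± 14.9, 613 ± 16.2, 519 ± 65.1 and 360.3 ± 60.0 RPKM at T0, T15, T30 and T60 (SD, n = 3). The rim101 averages were 194 ± 7.86, 572 ± 125, 385 ± 93.0 and 357 ± 64.4 RPKM (SD, n = 2), and the WT averages 156 ± 58.3, 602 ± 59.1, 415 ± 51.5 and 262 ± 70.3 RPKM (SD, n = 3). All T15 and T30 libraries were above all T0 libraries of their strain, and so were the T60 libraries of both mutants, whereas WT T60 replicate 2 (199.9 RPKM) lay below WT T0 replicate 1 (209.8 RPKM). PYC2 rose at T15 by 1.78 (SE 0.23, adjusted p = 4.69e-06) in crz1, 1.54 (SE 0.28, adjusted p = 0.000810) in rim101 and 2.02 (SE 0.23, adjusted p = 1.03e-06) in WT. At T30 the rises were 1.53 in crz1, 0.96 in rim101 and 1.48 in WT (adjusted p = 3.38e-05, 0.0188 and 5.17e-05). At T60 PYC2 rose by 1.00 (adjusted p = 0.00348) in crz1 and 0.79 (adjusted p = 0.0130) in WT, and the rim101 value was 0.86 (adjusted p = 0.0985).

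Part of the rise of PYC2 depended on how libraries were scaled. Median-ratio scaling brought the WT change to 0.95 at T30 (adjusted p = 0.0702) and to 0.20 at T60 (adjusted p = 0.699), and the T60 calls in crz1 and WT and the T30 call in rim101 were lost under both other scalings. The rim101 T15 call was lost under median-ratio scaling and with only the compared groups fitted, and those of crz1 and WT at T15 held under every alternative. The WT T60 call was also lost with only the compared groups fitted and without WT T0 replicate 2. The rim101 T30 call was also lost without either T0 library or T30 replicate 1. In the authors' deposited table, PYC2 in WT had log2 fold changes of 1.81 at T15 (FDR 0.000152), 0.94 at T30 (FDR 0.194) and 0.22 at T60 (FDR 1). From T15 to T60 PYC2 came down again in WT, by a log2 change of -1.22 (SE 0.23, adjusted p = 0.000729), and in crz1, by -0.78 (SE 0.23, adjusted p = 0.0289). The rim101 value was -0.67 (adjusted p = 0.188). Without the libraries of higher median neither the crz1 nor the WT call remained. The crz1 call was also lost under both other scalings, with an adjusted p of up to 0.159, and on leaving out any of 5 of its 6 libraries.

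**Figure D3:**
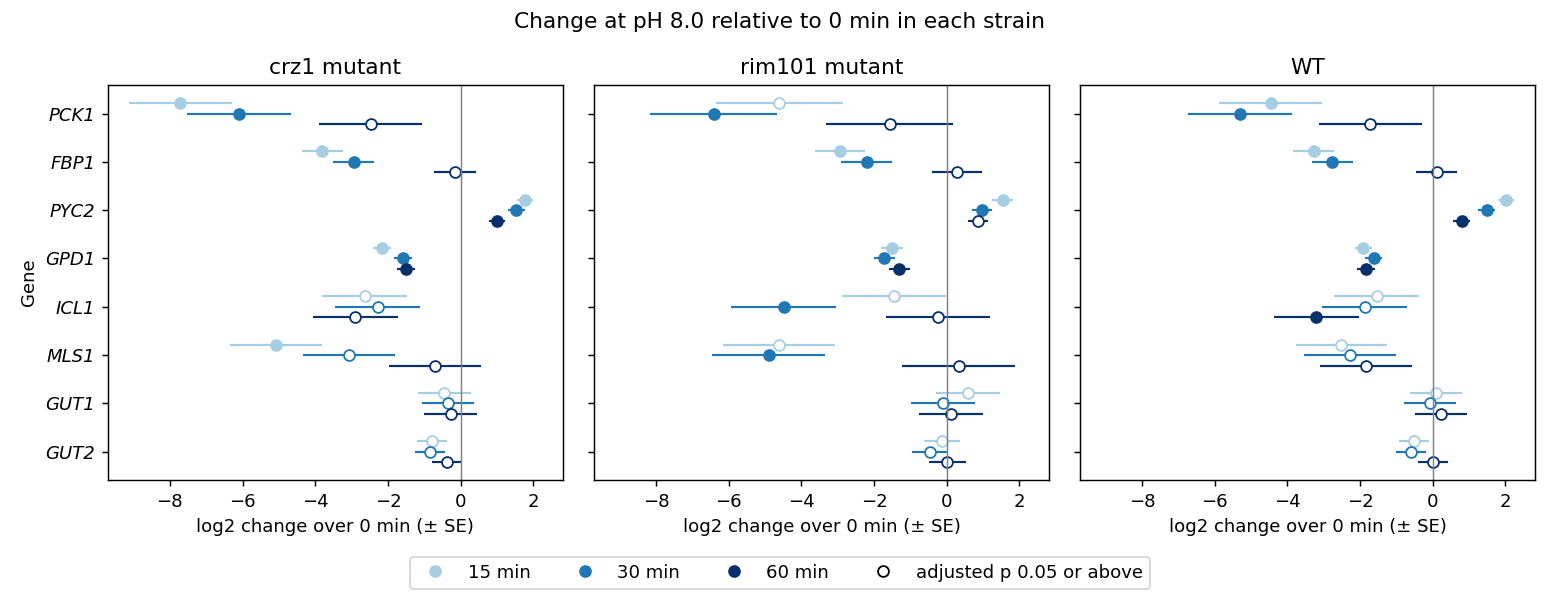
Log2 change of each gene over 0 min in each strain with its standard error, for 15, 30 and 60 min, where filled points had an adjusted p under 0.05 and open points did not. GPD1 is filled at all times in the 3 strains, GUT1 and GUT2 at none, and PYC2 alone lies to the right of 0 among the filled points.

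GPD1 (PAS_chr2-2_0111, chromosome 2, 2174394 to 2175599, plus strand) encodes the NAD-dependent glycerol-3-phosphate dehydrogenase of the cytosol, which makes glycerol 3-phosphate from dihydroxyacetone phosphate and in Saccharomyces cerevisiae serves glycerol synthesis under osmotic stress. In crz1 libraries it was at 531, 463 and 404 RPKM at T0, 85.3, 117 and 109 RPKM at T15, 127, 171 and 169 RPKM at T30, and 105, 213 and 193 RPKM at T60. In rim101 libraries it was at 256 and 282 RPKM at T0, 101 and 87.4 RPKM at T15, 81.5 and 81.0 RPKM at T30, and 108 and 109 RPKM at T60. In WT libraries it was at 463, 309 and 474 RPKM at T0, 106, 109 and 107 RPKM at T15, 106, 141 and 149 RPKM at T30, and 87.5, 104 and 161 RPKM at T60. Every library at pH 8.0 was below every T0 library of its strain, and replicate 1 of T0 was not above the others in rim101 or WT. GPD1 was the one gene of the 8 that fell at every time in every strain. At T15 the log2 change was -2.16 (SE 0.24, adjusted p = 6.35e-07) in crz1, -1.5 (SE 0.29, adjusted p = 0.00162) in rim101 and -1.91 (SE 0.24, adjusted p = 4.01e-06) in WT. At T60 it was -1.5 (adjusted p = 0.000103) in crz1, -1.30 (adjusted p = 0.00974) in rim101 and -1.84 (adjusted p = 8.78e-06) in WT.

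The falls of GPD1 in crz1 and WT and that of rim101 at T30 held under every alternative and without each library in turn. In rim101 the T60 call was lost without any one of its 4 libraries and under both other scalings, with log2 changes that stayed between -1.43 and -1.23, and the T15 call was lost when only the compared groups were fitted. In crz1, GPD1 at T60 was above T15 by 0.66 (adjusted p = 0.0807), and by the same amount with an adjusted p of 0.0453 when the replicate number, which pairs these crz1 libraries, was a block in the fit. The authors' deposited table gave WT log2 fold changes of -2.09, -2.11 and -2.33 at T15, T30 and T60 (FDR 1.05e-06, 2.92e-05 and 3.78e-05).

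GUT1 (PAS_chr4_0783, chromosome 4, 1483780 to 1485645, minus strand) encodes glycerol kinase, the first enzyme of glycerol use, and GUT2 (PAS_chr3_0579, chromosome 3, 1101194 to 1103197, minus strand) the glycerol-3-phosphate dehydrogenase that oxidises its product and passes electrons to the respiratory chain. GUT1 averaged 435 ± 380, 258 ± 68.8, 273 ± 56.6 and 335 ± 245 RPKM at T0, T15, T30 and T60 in crz1 (SD, n = 3). The averages were 386 ± 209, 537 ± 30.8, 335 ± 57.0 and 404 ± 151 RPKM in rim101 (SD, n = 2) and 380.1 ± 409, 232 ± 95.2, 198 ± 18.1 and 276 ± 168 RPKM in WT (SD, n = 3). The spread at T0 was as wide as the mean in WT, where replicates 1 to 3 were at 833, 39.8 and 267 RPKM. Its log2 changes over T0 lay between -0.45 (crz1 at T15) and 0.59 (rim101 at T15), and the 95% intervals were all at least as wide as -1.41 to 1.57, the WT interval at T15. A change of 2-fold in either direction was therefore not detectable for GUT1 in these libraries.

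GUT2 was at 1312, 638 and 602 RPKM in crz1, 1010.4 and 425 RPKM in rim101, and 1114, 289 and 607 RPKM in WT at T0, and averaged between 387 RPKM (WT at T30) and 681 RPKM (rim101 at T60) at pH 8.0. All crz1 libraries at T15 and T30 were below all crz1 T0 libraries, with log2 changes of -0.79 (adjusted p = 0.188) and -0.85 (adjusted p = 0.151). The other groups overlapped those of T0, and at T60 the WT value was 0.01 (95% interval -0.84 to 0.86). In the authors' deposited table GUT2 in WT had a log2 fold change of -1.33 at T30 with an FDR of 0.0524, and the value here was -0.60 (95% interval -1.45 to 0.25). With GPD1 down and no call for GUT2, the ratio of GUT2 to GPD1 mRNA within a library averaged 4.72 at T15 against 1.78 at T0 in crz1, 6.43 against 2.73 in rim101 and 3.79 against 1.54 in WT. At T15 every ratio was above every T0 ratio of its strain. At T30 this held only in rim101, and at T60 in rim101 and WT but not in crz1.

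ICL1 (PAS_chr1-4_0338, chromosome 1, 2031599 to 2033248, plus strand) encodes isocitrate lyase and MLS1 (PAS_chr4_0191, chromosome 4, 391316 to 393061, minus strand) malate synthase, the pair of enzymes that define the glyoxylate cycle. They were the 2 lowest of the 8 genes in every group, per kilobase of gene. ICL1 at T0 was at 49.8, 3.07 and 6.74 RPKM in crz1, 47.4 and 9.38 RPKM in rim101, and 58.0, 4.57 and 9.15 RPKM in WT. MLS1 at T0 was at 60.4, 21.3 and 27.5 RPKM in crz1, 59.3 and 13.8 RPKM in rim101, and 74.9, 0.605 and 30.2 RPKM in WT. Replicate 1 was the highest for both genes in each strain, and for ICL1 it exceeded its partners several fold. ICL1 was listed at 0 in 11 of 32 libraries and MLS1 in 10, all at pH 8.0. Of these, 8 and 7 were among the 9 libraries of higher median, and 3 and 3 among the other 23. In libraries of known depth a listed 0 allows at most 0.134 to 0.367 RPKM, the worth of 3 reads, which covers counting error only. None of 16 housekeeping genes was at 0 in any library.

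At T15 MLS1 was listed at 0 in all 3 crz1 libraries, at 0.496 and 0 RPKM in rim101, and at 2.89, 4.25 and 0 RPKM in WT. At T30 it was at 0, 6.99 and 7.08 RPKM in crz1, at 0 in both rim101 libraries, and at 0, 3.67 and 6.24 RPKM in WT. At T60 it was at 5.68, 36.6 and 35.5 RPKM in crz1, 43.9 and 30.2 RPKM in rim101, and 1.17, 0 and 37.1 RPKM in WT. In both mutants MLS1 was thus lowest at T15 and T30, and its T60 libraries reached into the T0 range. In WT only T60 replicate 3 was high, and the groups overlapped T0 at every time. It fell in crz1 at T15 (adjusted p = 0.00436) and in rim101 at T30 (adjusted p = 0.0276), both groups at 0 in every library, for which no fold is given. The crz1 call held without each library in turn, and the rim101 call was lost without T0 replicate 1 or either T30 library. In WT its log2 changes of -2.51, -2.27 and -1.84 at T15, T30 and T60 did not pass. From T15 to T60 it rose in crz1 (adjusted p = 0.0260), a call lost on leaving out any of 5 of the 6 libraries, and in rim101 the adjusted p was 0.0671.

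ICL1 at T15 was at 0, 0 and 5.58 RPKM in crz1, 12.4 and 4.02 RPKM in rim101, and 5.98, 18.3 and 0 RPKM in WT. At T30 it was at 0, 3.77 and 1.95 RPKM in crz1, at 0 in both rim101 libraries, and at 0, 7.66 and 6.76 RPKM in WT. At T60 it was at 0, 0 and 2.87 RPKM in crz1, 21.1 and 15.1 RPKM in rim101, and 0, 0 and 3.27 RPKM in WT. At T60 all ICL1 libraries were below those of T0 in crz1 and WT and within the T0 range in rim101, and WT replicates 1 and 2 were at or near 0 for both glyoxylate genes. It fell in rim101 at T30 (adjusted p = 0.0290) and in WT at T60, where the log2 change was -3.20 (SE 1.17, adjusted p = 0.0418), and in crz1 at T60 it was -2.90 (adjusted p = 0.0942). The rim101 call was lost without T0 replicate 1 or either T30 library. The WT call was lost without the libraries of higher median, which include both T60 libraries at 0, and without WT T0 replicate 1, T0 replicate 3, T60 replicate 1 or T60 replicate 2. That WT call was lost as well at a pseudocount of 5 and with only the compared groups fitted. The authors' deposited table gave ICL1 in WT at T60 a log2 fold change of -4.69 with an FDR of 0.123.

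Against WT, limma with equal library weights made 0 calls among them at T0, T15, T30 and T60, where 0.071%, 0.568%, 0.426% and 0.260% of all tested genes passed in crz1 and 0.118%, 1.06%, 1.51% and 1.66% in rim101. At an unadjusted p under 0.05 there were 0, 0, 0 and 2 of the 8 in crz1 and 1, 0, 1 and 2 in rim101. The 2 in crz1 at T60 were PYC2, with a log2 difference of 0.48 (95% interval 0.00 to 0.95), and GPD1, with 0.52 (0.03 to 1.01). The replicate numbers pair crz1 with WT at T0 and T30. Of the 8 genes, PYC2, GPD1 and GUT1 were higher in crz1 in each of the 3 pairs at T30. At T0 they were not, since PYC2 was lower in crz1 in replicate 1 and GPD1 and GUT1 were lower in replicate 3. The share of all tested genes higher in crz1 in each pair was not counted, so the T30 direction is not read as particular to these genes. At T30 the log2 differences of PYC2, GPD1 and GUT1 were 0.32, 0.23 and 0.45, each with an adjusted p of 1 with and without the replicate block. The difference in response, the change over T0 in the mutant minus that in WT, also gave 0 calls at an adjusted p under 0.05 and 0 at an unadjusted p under 0.05, at 3 times for each mutant. Of all tested genes, 0%, 0.0237% and 0% passed for crz1 and 0.450%, 0.781% and 0.568% for rim101.

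The intervals show how large a difference could have gone unseen. For PYC2 and GPD1 the 95% interval of the difference in response reached no further than -1.26 and 1.31 on the log2 scale in any of the 6 comparisons. For FBP1 it reached -2.18 and 2.41, and for PCK1 -7.41 and 4.81. With equal library weights, a difference of several fold in FBP1, and of any size seen here in PCK1, ICL1 or MLS1, was thus not detectable. Giving each library its own weight, limma made 7 calls in crz1 against WT, 8 in rim101 against WT and 3 in each difference in response. With these weights PYC2 and GPD1 at T60 were higher in crz1 than in WT by 0.78 (adjusted p = 2.01e-05) and 1.07 (adjusted p = 1.53e-07), although the libraries of the groups overlapped. The calls took in PCK1, ICL1 and MLS1 too, in both directions. The log2 difference of MLS1 between crz1 and WT was -1.94 at T15 (adjusted p = 0.00216) and 4.45 at T60 (adjusted p = 9.87e-07). At T15 that of PCK1 was -2.26 (adjusted p = 0.0204) and that of ICL1 -2.88 (adjusted p = 0.00108).

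The lowest unadjusted p among the 8 genes at T0 and at T30 in rim101 against WT was that of GPD1. At T0 it was at 256 and 282 RPKM in rim101, against 463, 309 and 474 RPKM in WT, and at T30 at 81.5 and 81.0 RPKM in rim101, against 106, 141 and 149 RPKM in WT. All rim101 libraries were below all WT libraries at T0, T15 and T30, and the groups overlapped at T60. At T15 another 3 genes had groups apart, all higher in rim101. The share of all tested genes with groups apart was not counted at any time, so groups apart are not read as a result about the 8 genes. At T15 the median log2 difference of all tested genes was 0.36, and 1.06% of them were called. GUT1 was at 515 and 559 RPKM in rim101, against 179, 342 and 175 RPKM in WT, a log2 difference of 1.28 (95% interval -0.39 to 2.95). GUT2 was at 558 and 642 RPKM in rim101, against 379, 441 and 403 RPKM in WT, a difference of 0.56 (-0.39 to 1.51), and FBP1 differed by 0.67 (-0.64 to 1.98). None of these passed. At T30 GUT1 and GUT2 were apart as well, again higher in rim101. GUT1 was at 295 to 375 RPKM in rim101 and 178 to 214 RPKM in WT, and GUT2 at 442 to 514 and 309 to 433 RPKM. Neither passed, and the median log2 difference of all tested genes at T30 was 0.41. For GPD1 the log2 difference was -0.60 (unadjusted p = 0.0338, adjusted p = 1) at T0 and -0.68 (unadjusted p = 0.0173, adjusted p = 0.371) at T30. Over all alternatives it stayed between -0.80 and -0.44 at T0 and between -1.16 and -0.59 at T30, with adjusted p from 0.0125 to 1 and from 0.000208 to 0.950, and the lowest of each came with library weights. The authors' deposited table gave -0.77 at T0 (unadjusted p = 0.0634).

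At T60 the glyoxylate pair gave the lowest unadjusted p in rim101 against WT, again with no call at equal library weights. ICL1 was at 21.1 and 15.1 RPKM in rim101, against 0, 0 and 3.27 RPKM in WT, a log2 difference of 3.54 (SE 1.31, unadjusted p = 0.0127, adjusted p = 0.260), and no library of one group reached the other. MLS1 was at 43.9 and 30.2 RPKM in rim101, against 1.17, 0 and 37.1 RPKM in WT, a difference of 3.10 (SE 1.41, adjusted p = 0.375) with overlap. The low WT libraries, replicates 1 and 2, are both of higher median and the rim101 T60 libraries are not. Across the alternatives the MLS1 difference ran from -0.03 to 4.67. With library weights limma called both genes, ICL1 at 4.16 (adjusted p = 0.000183) and MLS1 at 4.50 (adjusted p = 4.83e-06).

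**Figure D4:**
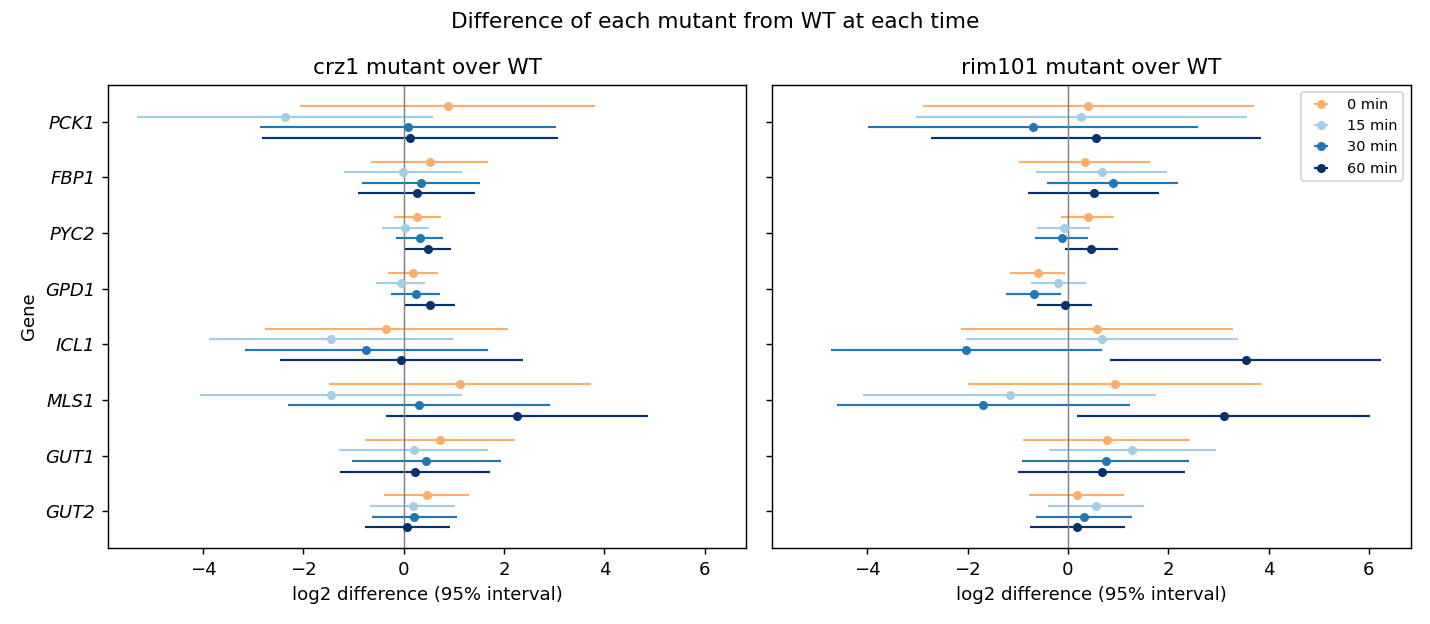
Log2 difference of the crz1 mutant (left) and the rim101 mutant (right) from WT for each gene at 0, 15, 30 and 60 min, with 95% intervals. Intervals are narrow for PYC2 and GPD1 and wide for PCK1, ICL1 and MLS1. With equal library weights, none of the differences passed at an adjusted p under 0.05.

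Around these genes, other steps of the same pathways were followed in 5 lists of 61 genes. The list of glycolytic steps opposite to gluconeogenesis also holds FBP26 and PFK26-1, which are named after enzymes that break down and make fructose 2,6-bisphosphate, an activator of phosphofructokinase. Of 7 genes tested, 7, 6 and 6 fell in crz1 at T15, T30 and T60, 4, 4 and 2 in rim101 and 5, 4 and 5 in WT, and none rose. FBP26, singled out after its values were seen, was among the falls in crz1 at all 3 times and in WT at T15. Among the called genes of this list at T60, GLK1, glucokinase, had the largest fall in each strain. It was -2.60 (SE 0.33, adjusted p = 5.02e-06) in crz1, -1.97 (SE 0.40, adjusted p = 0.00455) in rim101 and -2.49 (SE 0.33, adjusted p = 1.04e-05) in WT. The steps that both directions share behaved in the same way: of 8 tested, 6, 7 and 7 fell in crz1, 4, 8 and 1 in rim101 and 4, 7 and 8 in WT, and none rose. GPM3, named as a phosphoglycerate mutase, fell at T15 by -3.91 in crz1, -3.0 in rim101 and -2.93 in WT, and FBA1-1, fructose-bisphosphate aldolase, at T30 by -2.02 in crz1, -2.37 in rim101 and -1.81 in WT. None of either list rose under both other scalings, without the libraries of higher median or without replicate 1 of T0. Without that replicate the falls summed over the times were 3 and 4 in rim101 for the opposing and shared steps, against 10 and 13. The median log2 change of the opposing steps at T60 was -2.01 in crz1, -0.84 in rim101 and -1.68 in WT, beside 0.29, 0.13 and 0.65 over all genes.

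Of 18 tested genes of anaplerosis and of acetyl and organic acid use, 1, 2 and 2 rose and 4, 4 and 2 fell in crz1. In rim101 1, 1 and 0 rose and 1, 6 and 1 fell, and in WT 2, 3 and 2 rose and 1, 1 and 1 fell. Of all tested genes, 14.6%, 16.8% and 12.4% rose in crz1, 5.47%, 23.5% and 2.72% in rim101 and 13.4%, 24.1% and 26.9% in WT. The rises in this list were no larger a share than among all genes in crz1 and WT. Of all tested genes, 8.33%, 5.28% and 5.4% fell in crz1, 2.7%, 4.64% and 1.14% in rim101 and 5.18%, 4.07% and 4.61% in WT. The falls in this list were a larger share in crz1 and in rim101 at T30, and near that of all genes in WT. Without replicate 1 of T0 the falls summed over the times were 4 in crz1 and 3 in rim101, against 10 and 8. MAE1, malic enzyme, is 1 of the enzymes that make pyruvate, and it was called at every time in every strain. At T15 MAE1 fell by -2.56 (SE 0.17, adjusted p = 2.85e-10) in crz1, -1.79 (SE 0.21, adjusted p = 2.98e-06) in rim101 and -1.98 (SE 0.17, adjusted p = 1.72e-08) in WT. ALD4, an aldehyde dehydrogenase, rose at T60 by 1.33 in crz1 and 1.23 in WT, and ALD6-2, another, fell at T30 in both mutants. Of 6 tested genes of glycerol and triose use, 2 rose at T30 in crz1, STL1-3 by 2.03 and STL1-4 by 2.08, both named after the glycerol proton symporter, and DAK2, dihydroxyacetone kinase, fell at T15 by -1.20 (adjusted p = 0.00998). In rim101 1 rose, GUP1 at T30, and in WT limma called 0. The rises of these lists depended on the scaling: in the acetyl and organic acid list 5, 2 and 7 rises summed over the times in crz1, rim101 and WT became 1, 0 and 2 under median-ratio scaling and 0, 0 and 1 under quantile normalization.

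Of 18 tested regulators of carbon source genes and factors of enzyme turnover, 2, 3 and 2 rose and 1, 0 and 0 fell in crz1. In rim101 0, 3 and 0 rose and 1, 0 and 0 fell, and in WT 2, 4 and 5 rose and 1, 0 and 2 fell. The rises in WT were a share near the 13.4%, 24.1% and 26.9% among all tested genes. HAP3-2, which bears the name of a subunit of the Hap complex that activates respiratory genes in Saccharomyces cerevisiae, was listed at 0 in all T0 libraries. At T30 it was at 70.9, 50.1 and 64.2 RPKM in crz1, 19.6 and 24.6 RPKM in rim101, and 36.4, 26.0 and 15.3 RPKM in WT, and it rose in each (adjusted p = 1.39e-05, 0.00367 and 0.000245). VID24, a subunit of the Saccharomyces cerevisiae ligase that marks fructose-bisphosphatase for degradation when glucose returns, fell at T15 by -3.07 (adjusted p = 0.00395) in crz1, -3.33 (adjusted p = 0.0243) in rim101 and -2.83 (adjusted p = 0.00935) in WT, and at T60 by -2.87 (adjusted p = 0.00746) in WT. Here too rises and falls shifted with the scaling, with 7 rises and 1 fall over the times in crz1 and 11 and 3 in WT, against 4 and 8 in crz1 and 3 and 6 in WT under quantile normalization.

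**Figure D5:**
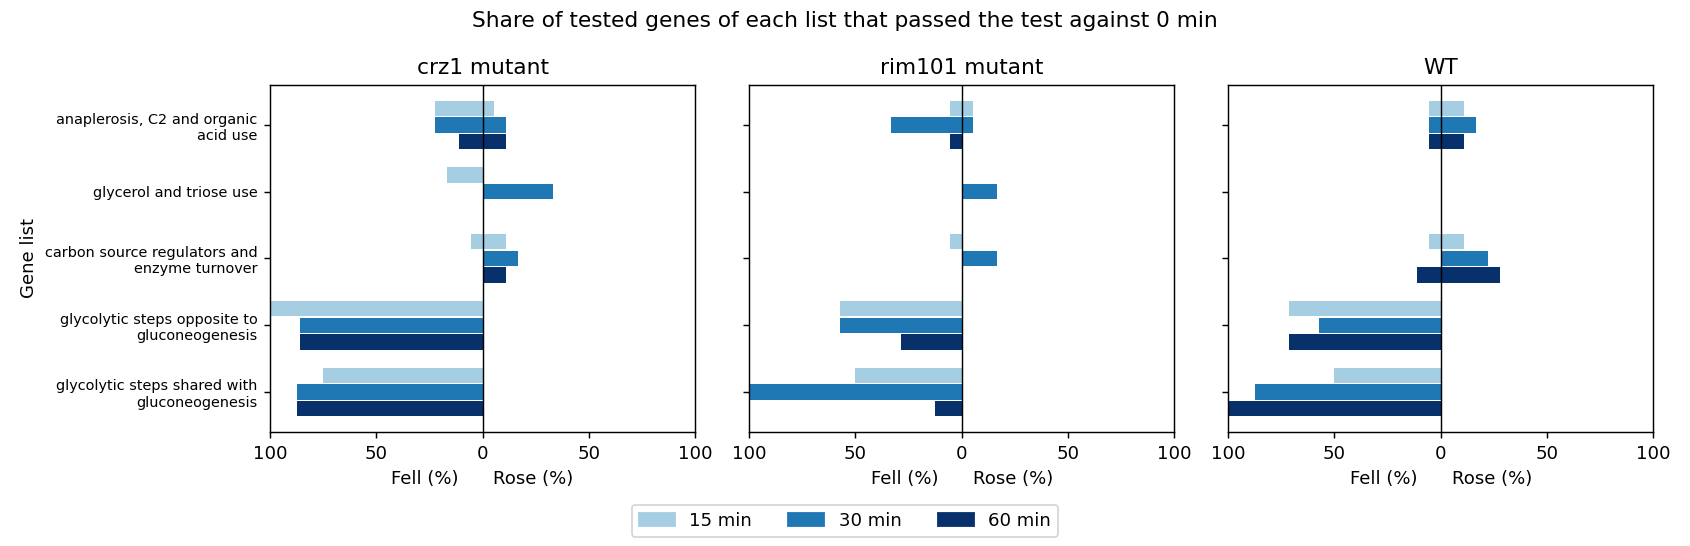
Share in percent of the tested genes of each pathway list that fell (left of 0) or rose (right of 0) at an adjusted p under 0.05 against 0 min, at 15, 30 and 60 min in each strain. The bars of both glycolytic lists extend only to the left in every strain.

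Searched among 2303 named genes with a mean of at least 10 RPKM, the genes whose group means over the 12 groups ran most like those of each gene were as follows, with Pearson's r given as a description. FBP1 was most like KGD2 (r = 0.960) and KGD1 (r = 0.959), subunits of 2-oxoglutarate dehydrogenase. PCK1 was most like CYB2 (r = 0.955), an L-lactate cytochrome c oxidoreductase, and PNC1 (r = 0.954), a nicotinamidase. For PYC2, UTP10 of ribosome assembly came second (r = 0.967). GPD1 was most like YIM1 (r = 0.953) and PGI1 (r = 0.950), glucose-6-phosphate isomerase. The glyoxylate genes were not each other's nearest: ICL1 was most like GLN1 (r = 0.936) and NIT2 (r = 0.898), and MLS1 most like GCV1 (r = 0.944) and DSE4 (r = 0.936). GUT1 was most like YAT1 (r = 0.861) and CRC1 (r = 0.779), which handle acetylcarnitine, and GUT2 most like LPD1 (r = 0.884) and TAL1-1 (r = 0.869). All points share the same libraries, and the correlation was taken on group means of log2(RPKM + 1).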

How the data were processed

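RPKM were computed and deposited by the authors for 5040 genes in 32 libraries, with Bowtie2 and edgeR among the tools per the submitters' processing notes, where neither has a version. No source used here gives the genome build. Gene identifiers and coordinates equal those of RefSeq assembly ASM2700v1, and none of the 8 genes overlaps another gene by these coordinates. The libraries are non-directional, and MLS1 lies 12 bp from a neighbour on the other strand, PYC2 66 bp and GUT2 67 bp. Whether transcripts that run past these coordinates mixed their reads was not tested. The authors' deposited table of comparisons gives p-values, FDR and log2 fold changes against WT T0, quoted only where named.

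Tests ran on log2(RPKM + 1), a scale that shrinks the changes of low genes, over the 4226 genes with a mean of at least 1 RPKM. limma 3.58.1 in R 4.3.3 fitted all 12 groups with an intensity trend (two-sided moderated test, Benjamini-Hochberg adjustment over all tested genes in each comparison). The script was checked on simulated data. Depth came from the spacing of low values, and in 30 libraries 94.0% to 98.7% of these were whole reads to within 0.1. No single spacing, and so no depth, was found for rim101 T30 replicate 1 or WT T15 replicate 2. Checks and figures were made in Python 3.11.15 with matplotlib 3.10.9, pandas 2.3.3 and numpy 2.4.6.

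The members, lists and tests were chosen with earlier results of these data known. Each member is described. From each list at most 4 genes per strain are named, those with the largest absolute log2 change among the called, and for each member the 2 genes most like it. PGI1 counts under both. The gene ranked first for PYC2 is not reported here. The alternatives were other pseudocounts (0.25 and 5), filters (none, or a mean of at least 5 RPKM), scalings, sets of fitted groups, library weights, a replicate block, and libraries left out. The comparison of T60 with T15, the omission of T0 replicate 1, the gene-by-gene method for library weights and the ratios were added after the values were seen. The replicate numbers pair libraries, with every pair of 3 correlated by over 0.1 in its deviations from the group mean, between crz1 T15 and each other crz1 time, between crz1 T60 and T30, and between crz1 and WT at T0 and T30. No other pair of groups met this rule, which asks for 3 pairs of libraries and so could not be met where rim101 takes part.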

Additional observations from a re-analysis of the deposited data

How the results depend on the processing

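No change of direction was seen among called values. Fitting only the compared groups gave 5 calls in rim101, 6 in WT and 4 for T60 over T15, against 10, 11 and 7. Library weights, estimated gene by gene because the default method did not converge, gave 17 in crz1 (against 11), 7 and 8 in crz1 and rim101 against WT, 3 in each difference in response (against 0 for these 4) and 12 for T60 over T15. Without replicate 1 of T0, rim101 had 3 calls. Without the libraries of higher median, T60 over T15 had 3, and rim101 T30 could not be fitted. Leaving out each library in turn gave 11 to 12 calls in crz1, 3 to 10 in rim101, 8 to 14 in WT, 4 to 7 for T60 over T15 and 0 to 0 for the mutants against WT and the differences in response. Calls in rim101 were fewest without T0 replicate 1 (3) or T30 replicate 1 (5). With the replicate number as a block there were 12 calls in crz1, 11 in rim101, 11 in WT, 8 for T60 over T15 and 0 in the others. The block added GUT2 in crz1 at T30 (adjusted p = 0.0489) and PYC2 in rim101 at T60 (adjusted p = 0.0250). The numbers did not meet the rule for pairing between crz1 T30 and T0. In rim101, with 2 libraries per group, the rule could not be met, so pairing there was not tested. The rim101 mutant has 2 libraries per group, so leaving 1 out assumes that the lone library varies like the other groups.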
